A study of Mus musculus with 4 samples.

Results

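The FGF genes described here were 4 ligands (Fgf3, Fgf8, Fgf10 and Fgf15), 3 receptors (Fgfr1, Fgfr2 and Fgfr3) and 3 genes that respond to the pathway (Spry1, Spry2 and Etv4). They were taken by gene symbol, and all 10 were found once among the 27998 genes of the count tables. Single-cell RNA sequencing covered 4 mouse libraries, 1 per stage, namely E8.0 and E8.25 (early) and E9.5 and E10.5 (late). All embryos carried Mesp1Cre and the Rosa26-GFPflox/+ reporter on the Swiss Webster strain, and no mutant or treated embryos were compared. The E8.0 and E8.25 libraries came from the upper body, and the E9.5 and E10.5 libraries from the pharyngeal apparatus and heart, each from pooled embryos. Sorted GFP+ DAPI- cells were loaded after trypsin-EDTA dissociation. Mesp1Cre acts in early mesoderm, so that cells outside the cardiopharyngeal mesoderm (CPM), such as blood, vessels and head mesenchyme, carried the label too.

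FGF ligands are secreted proteins that bind receptor tyrosine kinases together with heparan sulphate and act mainly through the MAP kinase cascade. Fgf8 and Fgf10 are known ligands of the second heart field (SHF) and pharyngeal mesoderm. Fgf10 acts mainly through Fgfr2, and Fgf15 is a mouse member of the hormone-like group. Spry1 and Spry2 encode inhibitors that the pathway induces in a feedback loop, and Etv4 encodes an ETS transcription factor that the pathway induces. The transcripts counted here report which cells held the message, not where the protein acted.

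On assembly GRCm38.p6, the annotation placed Fgf3 (ENSMUSG00000031074) on chromosome 7 from 144838612 to 144843348 and Fgf15 (ENSMUSG00000031073) downstream on the same chromosome from 144896532 to 144900953. Fgf8 (ENSMUSG00000025219) lay on chromosome 19 from 45736491 to 45742941 and Fgf10 (ENSMUSG00000021732) on chromosome 13 from 118714699 to 118792573. The receptor genes were Fgfr1 (ENSMUSG00000031565; chromosome 8, 25518759 to 25575718), Fgfr2 (ENSMUSG00000030849; chromosome 7, 130162451 to 130266808) and Fgfr3 (ENSMUSG00000054252; chromosome 5, 33721724 to 33737068). Spry1 (ENSMUSG00000037211) lay on chromosome 3 from 37639947 to 37644599, Spry2 (ENSMUSG00000022114) on chromosome 14 from 105891947 to 105896819, and Etv4 (ENSMUSG00000017724) on chromosome 11 from 101769747 to 101785310. All 10 are annotated as protein-coding genes, and UMIs were counted per gene, not per exon or isoform.

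After filtering, 7117, 2884, 3921 and 7523 cells were kept in stage order, with median counts of 21320, 35216, 17254 and 15208 unique molecular identifiers (UMIs) per cell. Levels are given as CPM, the UMIs of a gene per 1000000 UMIs of the library or of the cells named, with exact Poisson 95% intervals that cover counting error only. With 1 library per stage, differences between stages have no replicate check, and the dissected region changed between E8.25 and E9.5. Libraries shared between 16 and 88 cell barcodes per pair. The 10x 3′ counts favour transcript ends, so that levels are compared for the same gene and never between genes.

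Fgf8, Fgf3 and Fgf15 were the members that differed most between the first and the last stage. In stage order, Fgf8 stood at 40.5, 29.4, 11.8 and 1.11 CPM. These levels rest on 6134, 3121, 832 and 142 UMIs, and the E10.5 to E8.0 log2 ratio was -5.19 (-5.44 to -4.95). Fgf8 was lower at each stage than at the one before, with its largest step from E9.5 to E10.5 at a log2 ratio of -3.41.

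Fgf3, a ligand known from otic and pharyngeal development, was at 9.24, 1.09, 0.467 and 0.320 CPM in stage order, and its E10.5 to E8.0 log2 ratio was -4.85 (-5.34 to -4.40). Fgf15 was at 6.70, 2.07, 0.935 and 0.375 CPM, a log2 ratio of -4.16 (-4.61 to -3.74) between the same libraries. Fgf10 followed another course. It stood at 8.12, 7.01, 15.7 and 5.57 CPM, so that E9.5 was higher than E8.25 by 1.17 (1.03 to 1.30) on the log2 scale and E10.5 was below E8.0 by a log2 ratio of -0.54 (-0.68 to -0.41).

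Among the receptors, Fgfr1 (52.0, 50.5, 40.8 and 42.0 CPM) and Fgfr2 (10.3, 10.7, 13.2 and 11.3 CPM) stayed within a narrow range. Fgfr3 was at 5.23 and 4.20 CPM in the early libraries and at 1.59 and 1.24 CPM in the late ones. Both early libraries were above both late libraries for this receptor. The response genes did not follow Fgf8 over the stages. Spry2 was highest at E9.5 (15.4, 11.3, 35.1 and 17.1 CPM), Spry1 ranged from 6.26 to 10.2 CPM, and Etv4 ranged from 7.26 to 9.96 CPM.

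Taking the mean of the early libraries (E8.0 and E8.25) against the mean of the late ones (E9.5 and E10.5), 4 of 10 members were at least 2-fold lower late, and none was at least 2-fold higher. Over 15995 genes with at least 40 UMIs, 5.83% were at least 2-fold lower and 15.8% at least 2-fold higher. The log2 differences were -3.71 for Fgf3, -2.74 for Fgf15, -2.44 for Fgf8 and -1.74 for Fgfr3, against 0.97 for Spry2 and 0.49 for Fgf10. When the 7 marker gates that were filled in all libraries were given equal weight, the difference for Fgf15 shrank to -0.53 and that for Fgf3 to -1.42, while Fgf8 stood at -2.91. A library value cannot tell fewer cells holding a transcript from fewer molecules in each cell, so levels are next given by compartment.

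**Figure D1:**
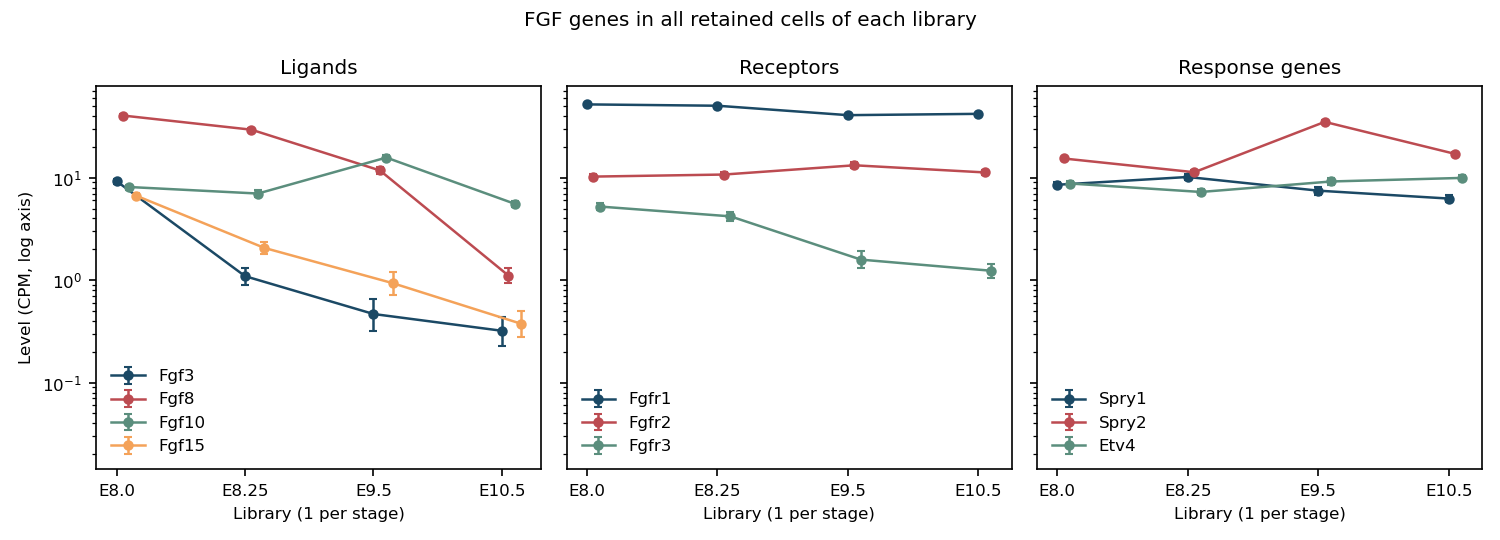
CPM of the 10 genes in each library on a log axis, in panels for ligands, receptors and response genes, with points for single libraries and bars for exact Poisson 95% intervals. Fgf8 declines from 40.5 to 1.11 CPM over the stages, while Fgfr1 stays between 40.8 and 52.0 CPM.

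Compartments were gated on marker genes that did not include any of the 10 members, after each cell was thinned to 8000 UMIs. A cell entered the anterior SHF (aSHF) gate with at least 2 of Isl1, Nkx2-5, Nkx2-6 and Mef2c, the branchiomeric muscle (BrM) gate with at least 2 of 6 markers that included Tcf21, Lhx2, Msc, Myf5 and Myod1, and the posterior SHF (pSHF) gate with at least 2 of 6 markers that included Tbx5, Osr1, Foxf1, Wnt2 and Hoxb1. Cardiomyocytes (CMs) needed 4 of 8 sarcomere genes and endothelial cells 3 of 8 endothelial genes. The aSHF gate held 349, 123, 257 and 299 cells in stage order, the BrM gate 54, 44, 384 and 472, the pSHF gate 695, 273, 592 and 680, the CM gate 415, 92, 642 and 306, and the endothelial gate 520, 207, 206 and 352. The early BrM gate was weakly marked, since 48 of 54 cells at E8.0 and 31 of 44 cells at E8.25 held only the minimum of 2 markers. Most aSHF-gate cells also held only the minimum of 2 markers, namely 238 of 349, 74 of 123, 148 of 257 and 221 of 299. In the aSHF gate 3 of 4 markers were raised against the other cells, Mef2c being the exception, and Fgf8 itself was among its 10 leading genes.

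Fgf8 was highest in the aSHF gate on average, at 109 ± 96.9 CPM (SD, n = 4 libraries), followed by the BrM gate at 61.0 ± 68.8 and the CM gate at 48.2 ± 43.8 CPM. The library values of these neighbours overlapped, and the differences within libraries are given with the gate comparisons. Its aSHF-gate levels were 189 CPM (179 to 199) and 193 CPM (180 to 206) in the early libraries, then 50.6 CPM (44.1 to 57.7) and 2.44 CPM (1.26 to 4.27) in the late ones. The 2 early values lay within counting error of each other (log2 ratio 0.03, -0.09 to 0.16), and the levels were lower from E9.5 on, with steps of -1.93 and -4.37. In the whole-library values the E8.25 level was already below E8.0, by a log2 ratio of -0.46.

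The share of aSHF-gate cells with an Fgf8 UMI went the same way, at 55.6% (194 of 349 cells), 56.9% (70 of 123), 21.0% (54 of 257) and 2.68% (8 of 299). Erythroid-gate cells, which should lack the transcript, held it in 2.34%, 4.14% and 0% at E8.0, E8.25 and E10.5 (5 erythroid cells at E9.5 were too few), at the same depth of 8000 UMIs per cell. At E8.25 the Fgf8 cells of this gate were 8 of 45 with 2 erythroid markers and 1 of 29 with 3. Cells with 4, 5 and 6 markers gave 2 of 106, 3 of 122 and 1 of 60. The E8.25 share thus rests largely on weakly marked cells and may lie above background. A count of 0 of 1079 cells allows a share of up to 0.278%. The pSHF gate (6.33%, 13.9%, 3.04% and 0.147%) and the endothelial gate (2.88%, 3.38%, 0.971% and 0.284%) were nearer to that background than the aSHF gate at E8.0 and E8.25, the early stages with a background value.

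In the BrM gate Fgf8 was at 149, 81.9, 11.6 and 1.44 CPM, and in the CM gate at 106, 57.4, 19.5 and 9.68 CPM. The order of compartments changed at E10.5. There the CM gate (7.27 to 12.6 CPM) was above the aSHF gate, and it held 38.0% of all Fgf8 UMIs in 4.07% of the cells, with 54 UMIs in 28 cells. The E10.5 to E8.0 log2 ratio was -6.27 (-7.23 to -5.46) in the aSHF gate, -6.69 (-7.73 to -5.82) in the BrM gate and -3.45 (-3.88 to -3.06) in the CM gate. At E10.5 a further 12.7% of Fgf8 UMIs sat in 7 cells of the epithelial gate, and 16 of those 18 UMIs were in 1 cell.

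Fgf10 was also highest in the aSHF gate on average (28.8 ± 9.69 CPM), next to the BrM gate (23.0 ± 14.3 CPM) and above the CM gate (10.1 ± 4.48 CPM). Its aSHF-gate levels were 27.1, 37.5, 34.9 and 15.9 CPM, and 19.8%, 21.1%, 21.4% and 11.7% of cells held a UMI. Erythroid-gate shares were 3.51%, 1.66% and 0.834%. The BrM gate ran the other way over time, at 10.3 CPM (5.12 to 18.3) and 13.3 CPM (7.87 to 21.0) in the early libraries and 41.6 CPM (37.2 to 46.4) and 26.8 CPM (23.3 to 30.8) in the late ones. The early and late BrM values did not overlap, and 29.0% and 28.8% of the Fgf10 UMIs of the late libraries came from BrM-gate cells, which made up 9.79% and 6.27% of cells.

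Fgf3 and Fgf15, both on chromosome 7, were found mainly outside the SHF gates in the early libraries. At E8.0 the caudal gate (764 cells) held 22.5 CPM of Fgf3 and 25.2 CPM of Fgf15, and 45.8% of that library's Fgf15 UMIs. Among the gates filled in all libraries, Fgf3 was highest on average in the endothelial gate (4.48 ± 6.10 CPM), with 13.6 CPM at E8.0. Fgf3 was higher still in the erythroid gate at E8.0, at 68.6 CPM (62.0 to 75.7), with a UMI in 31.0% of 171 cells against 2.76% at E8.25 and 0% at E10.5. Cells with the fewest erythroid markers held it most often, in 14 of 24 cells with 2 markers, 18 of 63 with 3, 14 of 56 with 4 and 7 of 27 with 5. In the same 4 classes Fgf8 was seen in 0, 2, 1 and 1 cells.

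Within the aSHF gate, Fgf3 was at 1.19, 0.228, 2.31 and 1.63 CPM and Fgf15 at 2.64, 1.37, 9.70 and 3.05 CPM. The E9.5 value of Fgf15 rests on 42 UMIs in 14 cells, 20 of them in 3 cells, and made up 63.6% of that library's Fgf15 UMIs. At E10.5 the aSHF gate held 31.3% of Fgf15 UMIs, the largest share of any gate there as at E9.5. In the pSHF gate the late libraries held 1 and 0 UMIs of Fgf15 and none of Fgf3, which allows up to 0.270 and 0.285 CPM of Fgf3. The 42 Fgf15 UMIs of the 23 neural-gate cells at E8.25 came from 7 cells, with 32 of them in 3 cells. Summed markers of neural cells, which Mesp1Cre should not label, were at 16.0, 25.1, 6.01 and 7.12 CPM in the aSHF gate and at 8.33, 5.37, 0.721 and 0.380 CPM in the pSHF gate, and summed epithelial markers at 9.38, 2.74, 4.85 and 15.5 CPM and at 1.87, 1.88, 5.50 and 4.56 CPM. In the aSHF gate 2, 0, 5 and 3 of the 8 neural markers and 1, 2, 4 and 1 of the 6 epithelial markers were at 0. The part of such cells in the ligand levels was not tested.

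**Figure D2:**
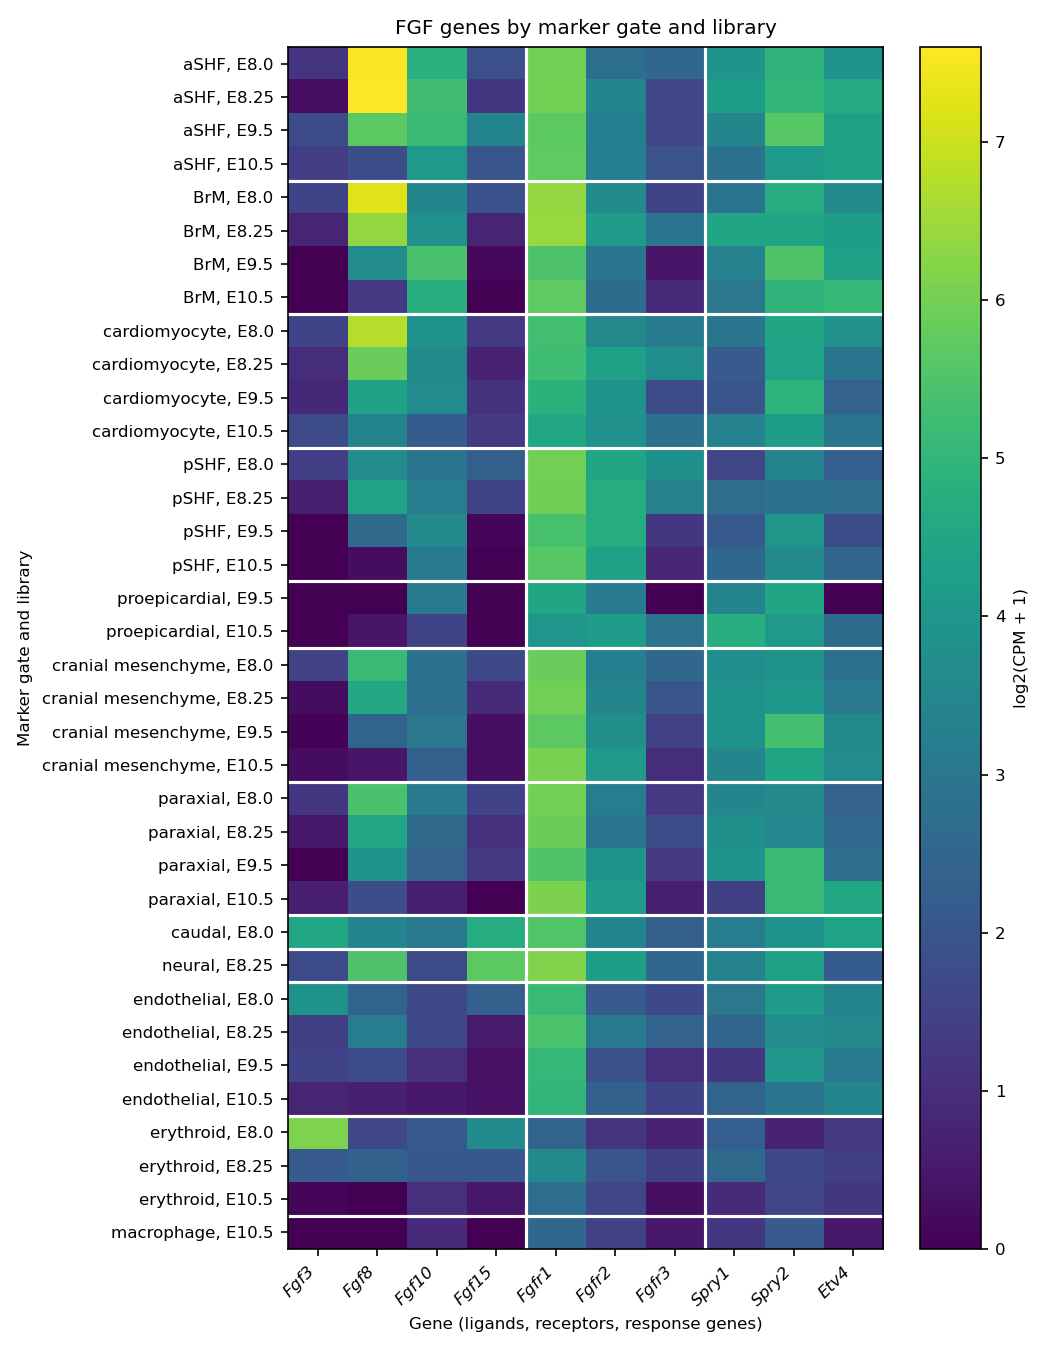
Heat map of the 10 genes in every marker gate with at least 20 cells in a library, coloured by log2(CPM + 1). Fgf8 is strongest in the aSHF gate at E8.0 (189 CPM) and E8.25 (193 CPM), and Fgf3 is strongest in the erythroid gate at E8.0 (68.6 CPM).

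Fgfr1, the main receptor of early mesoderm, was found in every mesodermal gate. Its mean level was 65.5 ± 20.6 CPM in the BrM gate, 58.9 ± 6.76 CPM in the cranial mesenchyme gate, 58.4 ± 10.3 CPM in the paraxial gate, 57.6 ± 6.98 CPM in the aSHF gate and 53.0 ± 10.3 CPM in the pSHF gate, and these 5 did not differ beyond their spread. The endothelial gate (34.9 ± 5.12 CPM) and the CM gate (31.7 ± 7.63 CPM) were lower. Erythroid cells (4.36, 11.4 and 5.67 CPM at E8.0, E8.25 and E10.5) and E10.5 macrophages (4.88 CPM) held least.

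Fgfr2, which in its mesenchymal and epithelial splice forms binds different ligands, was highest in the pSHF gate, at 21.6, 25.2, 25.2 and 19.2 CPM (mean 22.8 ± 2.96). The isoforms cannot be told apart in these counts. The aSHF gate held 5.68, 10.1, 8.78 and 8.75 CPM, and the groups of libraries did not overlap. The CM gate (10.9, 19.5, 13.6 and 13.3 CPM) lay between the aSHF and pSHF gates in each library.

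Fgfr3 had no single compartment. It was highest on average in the CM gate (7.80, 12.3, 2.40 and 6.10 CPM), and in the pSHF gate it stood at 13.1 and 9.32 CPM early against 1.35 and 0.761 CPM late, an E10.5 to E8.0 log2 ratio of -4.11 (-5.34 to -3.10). In the aSHF gate the same ratio was -0.74, within counting error. The spread of Fgfr3 over the libraries in the pSHF gate (6.14 ± 6.07 CPM) was as large as its mean.

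Among the gates filled in all libraries, Spry2 was highest in the aSHF gate (30.0, 31.5, 48.7 and 16.7 CPM; mean 31.7 ± 13.1) and the BrM gate (25.2, 21.4, 44.7 and 29.7 CPM; mean 30.2 ± 10.2), and the E9.5 library held the highest value in both. The pSHF gate had 9.75, 6.12, 15.4 and 11.5 CPM and the endothelial gate 16.9, 11.6, 14.4 and 6.99 CPM. Cells under 8000 UMIs, which were left out of all gates, held more Spry2 than the aSHF gate, at 73.7, 144 and 64.5 CPM at E8.0, E9.5 and E10.5, and 15.4% of the Spry2 UMIs of the last library, while the 8 such cells at E8.25 held none. The part of depth in the Spry2 levels was not tested. Among the same gates Etv4 was highest in the BrM gate (11.2, 17.7, 19.1 and 32.6 CPM) and the aSHF gate (13.6, 24.0, 19.2 and 19.3 CPM), whose means of 20.1 ± 8.99 and 19.0 ± 4.24 CPM did not differ beyond their spread. The caudal gate at E8.0 (20.3 CPM, 28.2% of that library's Etv4 UMIs) and the paraxial gate at E10.5 (21.9 CPM) were above the aSHF gate of the same library. In the pSHF gate Etv4 was at 3.81, 5.56, 2.52 and 4.66 CPM, below the aSHF gate in each library. The late BrM gate held more Etv4 than the early one, with an E10.5 to E8.0 log2 ratio of 1.54 (0.71 to 2.52).

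Spry1 was spread more evenly, with means of 12.6 ± 1.85 CPM in cranial mesenchyme, 12.1 ± 5.27 in the aSHF gate and 11.1 ± 6.99 in the BrM gate. Its single highest E10.5 value was in the proepicardial gate, at 26.5 CPM in 133 cells. Its aSHF-gate levels were 14.3, 18.3, 9.93 and 6.11 CPM. Where the E10.5 to E8.0 log2 ratio in the aSHF gate was -6.27 for Fgf8, it was -1.22 for Spry1, -0.85 for Spry2 and 0.51 (0.09 to 0.92) for Etv4.

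**Figure D3:**
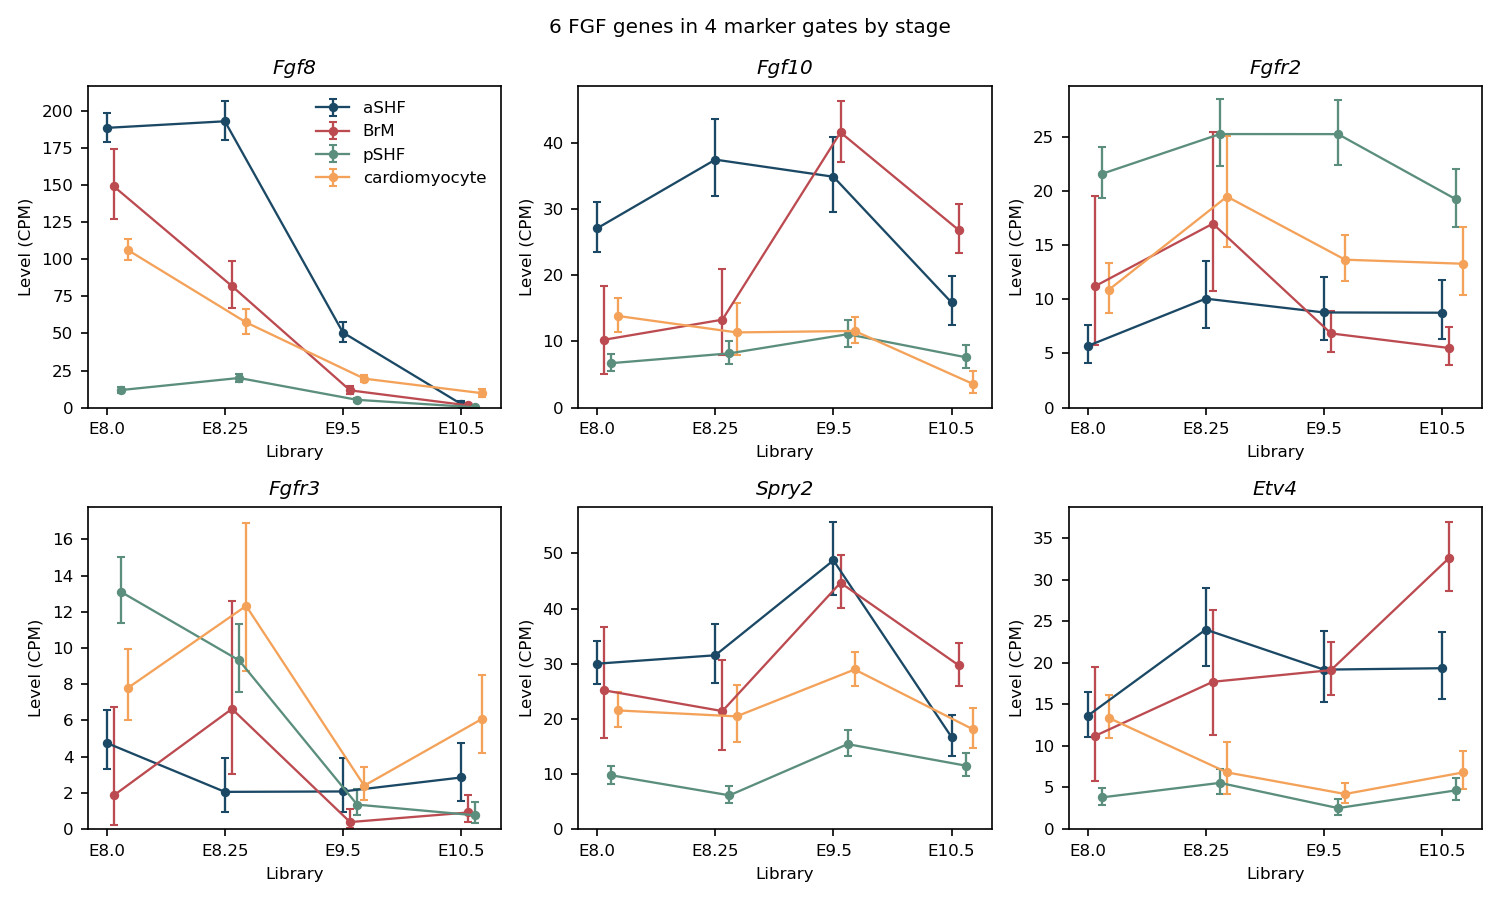
CPM of Fgf8, Fgf10, Fgfr2, Fgfr3, Spry2 and Etv4 in the aSHF, BrM, pSHF and CM gates of each library, with exact Poisson 95% intervals as bars. Between the first and the last stage, Fgf8 in the aSHF gate goes from 189 to 2.44 CPM and Etv4 there from 13.6 to 19.3 CPM.

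Gates were then compared with the library as a block, using edgeR's quasi-likelihood test on UMI counts summed per library and gate, with Benjamini-Hochberg adjustment over all genes tested and a threshold of 0.05. The 4 libraries served as replicates of the difference between gates. They differ in stage, so that the p-values measure the spread of a difference across these libraries and not across repeated embryos of 1 stage. The aSHF gate enters all 4 comparisons, which are therefore not independent.

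The first comparison, of the aSHF with the CM gate, set progenitors against differentiated muscle. Of the members, 8 could be tested and 4 were called, where 25.1% of 10999 genes were called (11.6% higher and 13.5% lower in the aSHF gate). Fgf10 was higher in the aSHF gate by 1.51 ± 0.19 (log2 ± SE; adjusted p = 0.00206), Fgfr1 by 0.86 ± 0.11 (adjusted p = 0.00227) and Etv4 by 1.28 ± 0.34 (adjusted p = 0.0348), and Fgfr2 differed by -0.80 ± 0.14 (adjusted p = 0.00758). Each of these had the same sign in 4 of 4 libraries. The call of Etv4 was lost without E8.25 (adjusted p = 0.0995), without E9.5 (0.127) or without E10.5 (0.094).

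Fgf8 was not called between the aSHF and CM gates (0.94 ± 0.40, adjusted p = 0.126), since it was higher in the aSHF gate by 0.83, 1.75 and 1.37 in the first 3 libraries and differed by -1.99 at E10.5. Without E10.5 the difference was 1.26 with an adjusted p of 0.00600. Spry1 (1.04, adjusted p = 0.108) and Spry2 (0.44, adjusted p = 0.0816) were likewise called without E10.5, at adjusted p of 0.0114 and 0.0184. Gates set on all UMIs also gave calls for Fgf8 (1.16, adjusted p = 0.0190) and Spry2 (0.84, adjusted p = 0.0112), and Spry1 was called without the filter on low counts (adjusted p = 0.0478) and with 1 marker more (1.72, adjusted p = 0.0102). Fgfr3 was at -1.15 (adjusted p = 0.0503), with the same sign in 4 of 4 libraries, and was called without the filter (adjusted p = 0.0210). Fgf3 and Fgf15 had too few UMIs to be tested. The median over the 8 tested members was 0.90, against 0.02 over all genes.

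The pSHF gate was next set against the aSHF gate, the opposite pole of the SHF. All 10 members were tested and 5 were called, where 2.64% of 11686 genes were called (0.762% higher and 1.88% lower in the pSHF gate), and their median was -1.60 against 0.00 over all genes. Fgf8 was lower in the pSHF gate, at -3.58 ± 0.16 (adjusted p = 1.37e-04), with library values of -4.00, -3.27, -3.27 and -3.68. Lower too were Etv4 at -2.21 ± 0.19 (adjusted p = 0.00268), Fgf10 at -1.76 ± 0.20 (adjusted p = 0.00712) and Spry2 at -1.56 ± 0.26 (adjusted p = 0.0288). Fgfr2 was higher by 1.47 ± 0.15 (adjusted p = 0.00481), so that the ligands Fgf8 and Fgf10 and this receptor had opposite signs, in 4 of 4 libraries each.

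Spry1 was at -1.65 ± 0.37 (adjusted p = 0.0760), with -2.83 at E8.0 and -0.31 at E10.5, and was called by DESeq2 (adjusted p = 0.00761) and without E10.5 (-2.06, adjusted p = 0.0127). Fgfr1 differed by -0.14 ± 0.07 (adjusted p = 0.415), and its library values lay between -0.31 and -0.01. The call of Fgf10 was lost without E8.25 (adjusted p = 0.0529), and that of Spry2 without E8.0 (0.103), E8.25 (0.106) or E9.5 (0.142). Fgf3 (-1.32), Fgf15 (-1.63) and Fgfr3 (0.69) were not called, and each had libraries of both signs.

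Between the BrM and aSHF gates, the skeletal and cardiac arms of the CPM, no member was called of 8 tested, where 1.94% of 10694 genes were called (0.739% higher and 1.2% lower in the BrM gate). At an unadjusted p under 0.05 there were 2, and DESeq2 called 0. Fgf8 was at -1.14 ± 0.25 (adjusted p = 0.0696) with the same sign in 4 of 4 libraries, at -0.34, -1.24, -2.12 and -0.76. It was called without E8.0 (-1.56, adjusted p = 0.0265), without E10.5 (-1.15, adjusted p = 0.0190), with gates set on all UMIs (-1.28, adjusted p = 9.32e-04) and with 1 marker more in every gate (-2.15, adjusted p = 5.88e-05). In the late libraries alone, an alternative chosen after the small early gate was seen, Fgf8 was at -1.86 (adjusted p = 0.00233), and 7.15% of genes were called.

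Fgf10 had opposite signs early and late in this comparison, at -1.40 and -1.50 in the early libraries and 0.25 and 0.76 in the late ones. Fgf15 was at -3.88 (adjusted p = 0.0916), a value set by 1 and 0 UMIs in the late BrM libraries. Fgfr1, Fgfr2, Spry1, Spry2 and Etv4 lay between -0.06 and 0.16 on the log2 scale with standard errors from 0.11 to 0.29, and Fgf3 and Fgfr3 were not tested. The median of the tested members was 0.00, against 0.01 over all genes.

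The endothelial gate had lower levels than the aSHF gate for 7 of 9 tested members, where 35.6% of 11036 genes were called (19.7% higher and 15.9% lower in the endothelial gate). Fgf8 differed by -4.68 ± 0.31 (adjusted p = 1.35e-04) and Fgf10 by -4.14 ± 0.25 (adjusted p = 8.81e-05). Spry2 was at -1.22 ± 0.17 (adjusted p = 0.00249), Etv4 at -0.86 ± 0.17 (adjusted p = 0.00964) and Fgfr1 at -0.65 ± 0.09 (adjusted p = 0.00200). All 5 were lower in 4 of 4 libraries.

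Spry1 (-1.36, adjusted p = 0.0251) lost its call between the endothelial and aSHF gates without E8.25 (adjusted p = 0.104) or E9.5 (0.0580). Fgfr2 (-0.83, adjusted p = 0.0359) lost it whichever library was left out, with adjusted p from 0.0502 to 0.0941. Fgfr3 (-0.32) and Fgf15 (-1.46) were not called, Fgf3 was not tested, and the median over the tested members was -1.22 against 0.00 over all genes.

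Whether a gate difference itself changed between the early and late libraries was tested as an interaction in the same 4 comparisons, which called 5 differences of members. The shares of all genes called were 1.2% for aSHF and CM, 1.55% for BrM and aSHF, 2.95% for pSHF and aSHF and 3.14% for endothelial and aSHF. The members were Fgf10 in the BrM comparison (adjusted p = 0.0111), Fgfr3, Fgf3 and Fgf15 in the pSHF comparison and Fgf15 in the endothelial one. For Fgf8 and for the 3 response genes no such change was called in any of the 4.

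**Figure D4:**
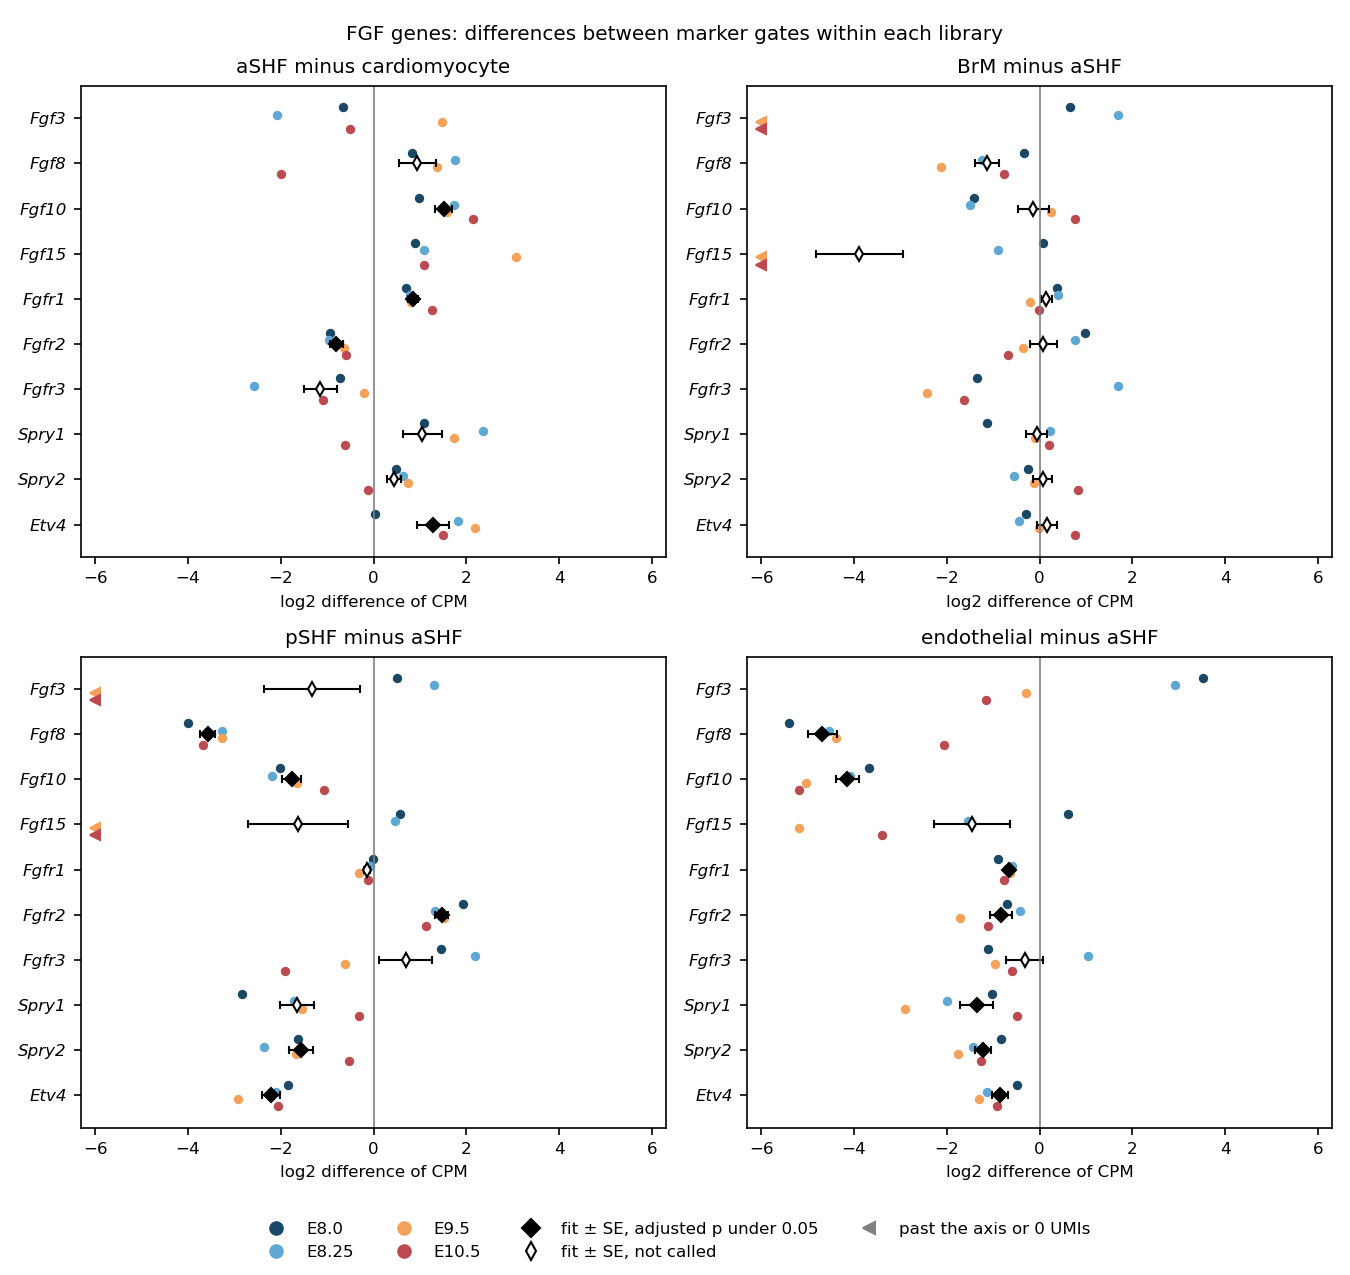
Log2 differences between gates for the 10 genes, with points for single libraries and diamonds for the fitted value with its SE, filled where the adjusted p was under 0.05. Fgf8 and Fgf10 lie below 0 and Fgfr2 above 0 in every library when the pSHF gate is compared with the aSHF gate.

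Of 40 other genes of the pathway, 17 to 20 had too few UMIs to be tested in a gate comparison. Most of the genes not tested were ligands, 12 of 14 in 3 comparisons and all 14 in the endothelial one. The 12 further feedback and response genes, of which Spry3 was not tested, gave most calls. In the pSHF gate 7 of 11 were lower and 0 higher, where 1.88% of all genes were called lower, with a median of -1.51 against 0.00 over all genes. These were the ETS factors Etv5 (-2.31, adjusted p = 0.00696) and Etv1 (-1.51, adjusted p = 0.0154), the MAP kinase phosphatases Dusp6 (-1.67, adjusted p = 0.0424) and Dusp4 (-0.80, adjusted p = 0.0495), the receptor antagonist Il17rd (-2.0, adjusted p = 0.0373), and Spred3 (-2.21) and Spred2 (-0.67), inhibitors related to Spry. Each was lower in 4 of 4 libraries. Etv5 and Etv1 lost their calls without E8.25 (adjusted p = 0.0710 and 0.0818). Dusp6 (adjusted p from 0.0963 to 0.222), Il17rd (0.113 to 0.192) and Spred3 (0.101 to 0.136) lost theirs without E8.0, E8.25 or E9.5, and Dusp4 (0.0717 to 0.242) and Spred2 (0.0782 to 0.175) without any of the 4.

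Against the CM gate, 4 of 11 further response genes were higher in the aSHF gate, where 11.6% of all genes were called higher, namely Il17rd (1.65, adjusted p = 0.00542), Etv5 (1.37, adjusted p = 0.0256), the cell-cycle gene Ccnd1 (0.51) and Spred1 (0.49). Il17rd stayed called whichever library was left out. Etv5 was not called without E8.25 or E9.5 (adjusted p = 0.0789 and 0.0988), nor Ccnd1 (0.0882 to 0.111) and Spred1 (0.0652 to 0.0895) without E8.0, E8.25 or E9.5. Against the aSHF gate, the BrM gate had 4 of 11 called, where 1.94% of all genes were called, with 2 higher, Dusp4 (1.21, adjusted p = 0.0188) and Dusp6 (0.99, adjusted p = 0.0322), and 2 lower, Dusp5 (-1.60, adjusted p = 0.0321) and Ccnd1 (-0.52, adjusted p = 0.0277). Dusp4 and Dusp5 lost their calls without E8.0, E8.25 or E9.5 (adjusted p from 0.0597 to 0.157), Dusp6 without E8.0 or E9.5 (0.112 and 0.215), and Ccnd1 without E8.0, E9.5 or E10.5 (0.0525 to 0.121). The endothelial gate had 5 of 11 called, where 35.6% of all genes were called, with 4 lower, Etv1 (-2.40, adjusted p = 1.36e-04), Il17rd (-2.31, adjusted p = 0.00641), Etv5 (-1.27) and Spred1 (-1.20), and 1 higher, Dusp4 (0.89), which was not called without E8.0 or E8.25 (adjusted p = 0.132 and 0.127).

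Immediate early genes, which cell dissociation can raise, moved beside some of these lists. In the pSHF gate Junb (-1.36, adjusted p = 0.0131) and Ier2 (-0.83, adjusted p = 0.0439) were lower, and in the endothelial gate Atf3 (3.85), Junb (2.25), Jun (1.35) and Ier2 (0.41) were higher. Ier2 was also higher in the aSHF than in the CM gate (0.55). Junb and Ier2 in the pSHF gate and Ier2 in the endothelial gate lost their calls without E8.0, E8.25 or E9.5 (adjusted p from 0.0512 to 0.201), and Ier2 against the CM gate without E8.25 or E9.5 (0.0580 and 0.0844). Their part in the response gene values was not tested.

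Against the CM gate, 2 of 4 tested receptor or co-factor genes and 2 of 6 transduction genes were called (25.1% of all genes). The BrM comparison called 1 of 4 and 0 of 6 (1.94% of all genes). The endothelial comparison called 0 of 4 and 3 of 5 (35.6% of all genes). Of the other ligands, at most 2 were tested in a comparison, and none was called between gates. In the aSHF gate the FLRT proteins Flrt2 (-1.04) and Flrt3 (-0.90), which can bind FGF receptors, and the adaptor Grb2 (-0.40) and the phosphatase Ptpn11 (-0.33) were lower than in the CM gate. Flrt3 was higher in the BrM than in the aSHF gate (0.92, adjusted p = 0.0121). In the endothelial gate the adaptors Gab1 (1.61) and Grb2 (0.49) were higher and Frs2 (-1.04), which docks on FGF receptors, was lower. The pSHF gate had no call in either list, of 4 and 6 tested genes, where 2.64% of all genes were called. Flrt2, Grb2 and Ptpn11 against the CM gate were each lost without 3 of the 4 libraries, E9.5 among them (adjusted p from 0.0603 to 0.178), Flrt3 there without E9.5 (0.0723), and Frs2 without E9.5 or E10.5 (0.0635 and 0.0585).

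Cells that held a ligand transcript were next compared with those that did not. Among 5504, 2186, 2809 and 4897 cells outside the gates decided first (epithelial, neural, erythroid, macrophage, endothelial and CM), 876, 360, 176 and 37 held an Fgf8 UMI and 345, 102, 319 and 274 an Fgf10 UMI after thinning. Of the other 9 members, 8 were tested against Fgf8 and 4 were called, where 3.74% of 11885 genes were called (1.91% higher and 1.83% lower in Fgf8 cells). Fgf10 was higher in Fgf8 cells by 1.90 ± 0.16 (adjusted p = 2.27e-06), at 25.3, 17.4, 42.6 and 30.4 CPM in stage order against 5.59, 4.59, 15.4 and 8.23 CPM in the other cells. Each library showed it, although the last rests on 9 UMIs.

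Spry2 was higher in Fgf8 cells by 0.98 ± 0.11 (adjusted p = 5.33e-05) and Etv4 by 0.97 ± 0.19 (adjusted p = 0.00822), with 4 of 4 libraries higher for both. The call of Etv4 was lost without E8.25 (0.69, adjusted p = 0.0965). Fgfr2 was lower, at -1.32 ± 0.19 (adjusted p = 4.41e-04), with 5.57, 4.17, 5.68 and 3.38 CPM against 12.7, 12.4, 15.0 and 15.3 CPM. The last value comes from 1 UMI. Fgfr1 differed by 0.09 ± 0.08 (adjusted p = 0.733), Spry1 by 0.55 (adjusted p = 0.273), Fgfr3 by -1.03 (adjusted p = 0.167) and Fgf15 by -0.15 (adjusted p = 0.989), and Fgf3 was not tested.

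With Fgf10 UMIs used to divide the cells, 3 of 8 tested members were called, where 2.34% of 11959 genes were called (1.05% higher and 1.3% lower in Fgf10 cells). Fgf8 was higher by 1.93 ± 0.11 (adjusted p = 9.97e-09), which is the association of the same ligands seen from the other side. Spry2 was higher by 0.69 ± 0.11 (adjusted p = 0.00123) and Etv4 by 0.72 ± 0.15 (adjusted p = 0.0115). Etv4 lost its call without E9.5 (adjusted p = 0.0618) or E10.5 (0.0522). Fgfr2 was at -0.64 (adjusted p = 0.0783), with values of -1.04, 0.00, -0.38 and -0.85.

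Cells of the aSHF gate made up 22.1%, 19.4%, 30.7% and 21.6% of the cells with an Fgf8 UMI and 3.35%, 2.90%, 7.71% and 5.99% of those without. Within the aSHF gate alone, 1.38% of 7007 genes were called against Fgf8 and 0.614% of 6190 against Fgf10. The only member called there was the other ligand, while Fgf15, Fgfr2, Fgfr3 and Spry1 could not be fitted in either comparison. Fgf10 was higher in Fgf8 cells by 1.73 ± 0.25 over the 3 libraries with enough cells (E10.5 had 8 Fgf8 cells), and Fgf8 was higher in Fgf10 cells by 0.93 ± 0.14. There Spry2 was at 0.34 ± 0.22 (adjusted p = 0.780) and Etv4 at 1.07 ± 0.35 (adjusted p = 0.16) in Fgf8 cells, and at 0.46 ± 0.21 (adjusted p = 0.646) and 0.47 ± 0.32 (adjusted p = 0.897) in Fgf10 cells.

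The further response genes gave 6 calls of 11 in Fgf8 cells and 4 of 11 in Fgf10 cells, all higher, where 1.91% and 1.05% of all genes were called higher, with medians of 0.60 and 0.43 against 0.00 and -0.01 over all genes. Etv5 (1.41 and 1.03), Il17rd (1.39 and 0.97), Dusp6 (0.60 and 0.61) and Spred1 (0.60 and 0.43) were called in both comparisons, and Etv1 (0.77) and Spred3 (1.65) in Fgf8 cells. Il17rd was higher in Fgf8 cells by 1.42, 1.36, 1.27 and 1.32 in the 4 libraries, and Dusp6 by 0.57, 0.52, 0.63 and 0.70. The ligand Fgf9 was higher in cells with either transcript (2.45, adjusted p = 0.00227, and 1.47, adjusted p = 0.00927). At E9.5 it stood at 27.0 CPM in Fgf8 cells against 2.80 CPM in the others, whereas at E8.0 the 2 sets held 4 and 12 UMIs. Ier2 was higher in Fgf8 cells as well (0.48), and Flrt3 (-0.66) was lower in Fgf8 cells and Flrt2 (-0.50) in Fgf10 cells. Spred1 and Spred3 in Fgf8 cells and Fgf9 in Fgf10 cells were each higher in 3 of 4 libraries and lower in 1. Flrt2 in Fgf10 cells was lower in 3 libraries and higher in 1. In Fgf8 cells the calls lost were Spred1 without E8.0 or E8.25 (adjusted p = 0.192 and 0.0512), Spred3 without E8.0, E8.25 or E9.5 (0.0961 to 0.153), Etv1 without E8.0 or E10.5 (0.442 and 0.0749) and Fgf9 without E9.5 (0.0625). In Fgf10 cells they were Spred1 without E8.0 or E9.5 (0.194 and 0.0828), and Fgf9 (0.205 and 0.141) and Flrt2 (0.162 and 0.509) without E9.5 or E10.5.

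Within the aSHF gate alone, Il17rd (0.92, adjusted p = 0.00467) was the 1 further response gene that stayed called in Fgf8 cells, beside Flrt3 (-1.40, adjusted p = 0.0101) and Ier2 (0.51, adjusted p = 0.0428). Etv5 was then at 0.57 (adjusted p = 0.599), Dusp6 at 0.49 (0.287), Etv1 at 0.47 (0.847) and Spred1 at 0.45 (0.487), and Spred3 and Fgf9 could not be fitted. In Fgf10 cells none of the 4 stayed called, with Il17rd at 0.67 (adjusted p = 0.132), Etv5 at 0.43 (0.877), Dusp6 at 0.30 (0.844) and Spred1 at 0.066 (1.0), and Fgf9 could not be fitted there either.

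**Figure D5:**
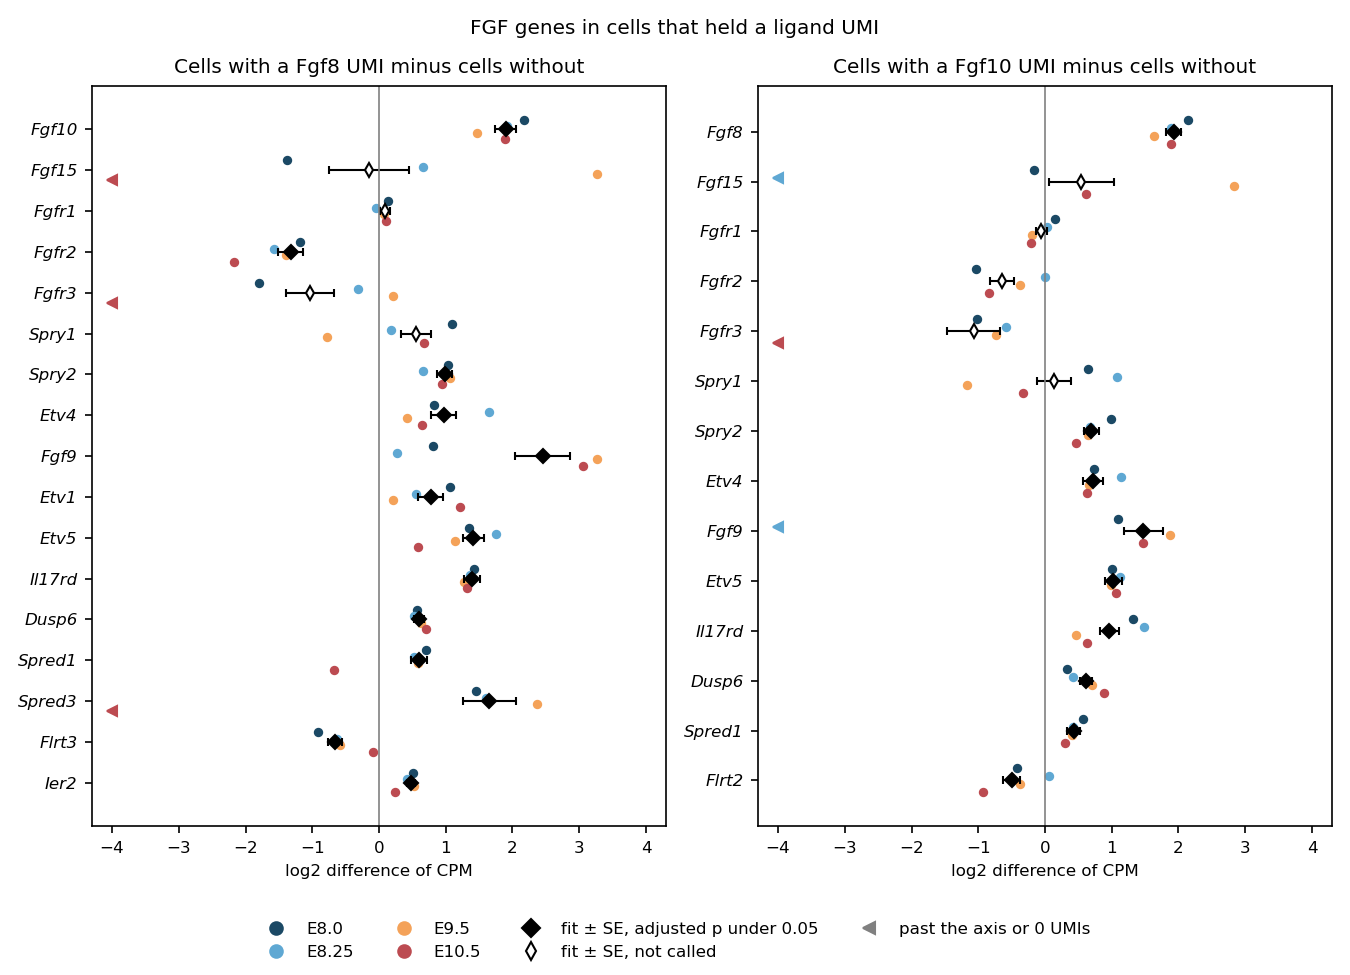
Log2 differences between cells with and without an Fgf8 or Fgf10 UMI for the other members and the called pathway genes, with points for single libraries and diamonds for the fitted value with its SE, filled where the adjusted p was under 0.05. Fgf10 or Fgf8, Spry2, Etv4, Etv5 and Il17rd lie above 0 in every library, and Fgfr2 lies at or below 0.

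Counted cell by cell in the aSHF gate, Fgf8 and Fgf10 were seen together in 60, 18, 25 and 3 cells in stage order, where independent occurrence would give 38.4, 14.8, 11.6 and 0.936. At E9.5, 46.3% of Fgf8 cells of the gate held Fgf10, against 14.8% of the rest. The late BrM gate did not show this, with 11 cells against 10.46 and 2 against 1.81, and the early one held 1 against 1.28 and 3 against 1.09. The excess was not particular to the aSHF gate. In the pSHF gate the counts were 8, 5, 2 and 0 in stage order, against 2.34, 1.81, 1.43 and 0.0471. Over all cells deep enough to be gated they were 181, 49, 56 and 6, against 63.8, 17.3, 24.5 and 2.24. Over all cells deep enough to be gated, Fgf3 and Fgf15 were seen together in 49, 2, 6 and 4 cells against 11.0, 0.209, 0.0610 and 0.0557. In the aSHF gate these ligands met in 0, 0, 2 and 2 cells. Cells of 1 library share its embryos and its free RNA, and depth was equal at 8000 UMIs, so these counts are a description.

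Over the 36 library and gate points with at least 20 cells, the gene whose log2(CPM + 10) was most like that of Fgf8 was Igfbpl1 (Pearson r = 0.887), followed by Prdm1 (0.867) and Sall1 (0.844). For Fgf10 these were Dusp14 (0.899), Frat2 (0.793) and Tlx1 (0.770). Fgfr1 was most like Mapk7 (0.911), Fgfr2 like Kctd1 (0.842), Spry2 like Acsl3 (0.838), Etv4 like Ppm1l (0.723) and Spry1 like Kazn (0.714). Points of 1 library share its depth and embryos, and 9195 genes were searched for each member. Among the members themselves the closest were Spry2 with Etv4 (0.630), Fgf10 with Spry2 (0.601) and Fgf8 with Fgf10 (0.545).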

How the data were processed

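Sorted Mesp1-lineage cells were sequenced with the 10x Chromium 3′ v2 chemistry, and the authors deposited filtered UMI count matrices made with Cell Ranger 3.1.0 against mm10, per the submitters' processing notes. The deposited values were raw counts per gene and cell for 7581, 2956, 4055 and 8070 cells in stage order. A cell was kept if 1000 or more genes were detected and no more than 10% of its UMIs were mitochondrial. Doublets were treated by removing the cells with the highest Scrublet scores at a rate of 0.8% per 1000 cells, because Scrublet's own threshold marked between 0.0247% and 1.58% of cells. Retained cells summed to 151570648, 106020617, 70599266 and 127934585 UMIs, so that a count of 0 in a whole library allows up to 0.0198, 0.0283, 0.0425 and 0.0234 CPM (3 counts). Gates were set on UMIs after thinning each cell to 8000, leaving out 501, 8, 249 and 803 shallower cells, and needed 20 cells in a library. Epithelial, neural, erythroid, macrophage, endothelial and CM gates were decided first, and a cell meeting several later gates entered the one with the largest share of its list, or none if tied. Not every gate marker is reported here.

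The members, gates and pathway lists were chosen with earlier results of these data known. All 10 members were named in every comparison, other pathway genes where called, and the genes most correlated with each member of at least 5 CPM on average.

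Sums per library and gate were tested with edgeR 4.0.16 (R 4.3.3; TMM, filterByExpr, quasi-likelihood F test) with library as a block, since the profiles of a library come from the same pooled embryos. Deviations of same-library profiles correlated at 0.587 to 0.774 over genes. DESeq2 1.42.0 was an alternative. Statistics across genes were tested on simulated data. Poisson, conditional binomial and Clopper-Pearson 95% intervals came from scipy 1.17.1. Gene positions were matched by symbol to the RefSeq annotation of GRCm38.p6. No sequences are shown. Alternatives comprised other tools and filters, gate definitions, doublet treatment, scaling, and leaving out each library.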

Additional observations from a re-analysis of the deposited data

Results flagged for a closer look

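In 10 cases the difference between 2 gates itself differed between the early libraries (E8.0 and E8.25) and the late ones (E9.5 and E10.5), by an interaction term of gate and period in edgeR with the library as a block. Between 1.2% and 3.14% of genes were called in these interaction tests, and the early and late dissections covered different regions, which cannot be told apart from stage. Among the members, Fgf10 between the BrM and aSHF gates changed from -1.46 early to 0.53 late (log2, adjusted p = 0.0111). Fgfr3 between the pSHF and aSHF gates changed from 1.65 to -1.20 (adjusted p = 0.0262).

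The pSHF to aSHF difference of Fgf15 (adjusted p = 0.00211) and of Fgf3 (adjusted p = 0.0176) also differed between periods, and these rest on 1 and 0 late pSHF UMIs of Fgf15 and on none of Fgf3. Fgf15 between the endothelial and aSHF gates was called at adjusted p = 0.0445, with an early value of 0.26 and the late aSHF level set largely by 3 cells of the E9.5 library, which held 20 of its 42 UMIs there.

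Among the other pathway genes, Flrt3 differed between periods in the endothelial comparison (0.58 early, -2.84 late, adjusted p = 0.00229) and in the pSHF comparison (1.11 early, 0.03 late, adjusted p = 0.0207). Fgf9 in the pSHF comparison went from 2.93 to -1.89 (adjusted p = 0.00403) and Il17rd from -2.79 to -1.09 (adjusted p = 0.0295). Flrt2 between the aSHF and CM gates went from -0.19 to -1.71 (adjusted p = 0.0338).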

How the results depend on the processing

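Without the library term (the replicate block), members called went from 4 to 0 against the CM gate and from 5 to 1 for pSHF. For the endothelial gate they went from 7 to 5, for Fgf8 cells from 4 to 0 and for Fgf10 cells from 3 to 0. BrM stayed at 0. Calls over all genes fell too, to 488, 7, 1971, 1, 1 and 0 in the order given. Without a filter on low counts 7 members were called against the CM gate, where calls over all genes rose from 2762 to 3124. For BrM 2 members were called, where calls over all genes rose from 207 to 871. Gates set on all UMIs gave 1 BrM call and 1 marker more gave 3, with no share over all genes beside these. The late libraries alone, chosen after seeing the data, gave 3, where 7.15% of genes were called. Restricting the ligand comparisons to aSHF-gate cells left 1 call in each, where Fgf15, Fgfr2, Fgfr3 and Spry1 could not be fitted. With 1 marker more in every gate, 7 instead of 4 members had their highest mean in the aSHF gate. Leaving out each library in turn gave 0 to 1 calls for BrM (1 without E8.0 or E10.5) and 3 to 6 for pSHF (3 without E8.25). Counts over all genes ran from 0 to 871 for BrM (207 reported) and from 7 to 483 for pSHF (309 reported), lowest without the block and highest without the filter. On leaving out 1 library they fell as low as 1272 against the CM gate (of 2762, without E9.5; 1831 and 1829 without E8.0 and E10.5), 61 for BrM (without E9.5), 52 for pSHF (without E8.25; 174 and 123 without E8.0 and E9.5), 2579 for endothelial (of 3925, without E9.5), 271 for Fgf8 cells (of 445, without E8.0) and 155 for Fgf10 cells (of 280, without E9.5; 158 without E10.5).

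Over all members and named pathway genes, each log2 difference was counted once per alternative setting. Called differences stayed called with the same sign in 517 such cases, lost their call in 190 and changed sign in 1. That case was Flrt2 in Fgf10 cells of the aSHF gate (0.047). Differences not called stayed so in 205 cases, became called in 25 and changed sign in 28. The sign changes in the BrM comparison were Spry2 without the block (-0.021), Fgfr2 (-0.12) and Spry1 (0.076) with gates on all UMIs, Fgf10 (0.52), Fgfr1 (-0.22) and Fgfr2 (-0.42) with 1 marker more, and Fgf10 (0.53), Fgfr1 (-0.055), Fgfr2 (-0.46) and Spry1 (0.095) in the late libraries. Leave-one-out ranges there were -0.52 to 0.17 for Fgf10, -0.15 to 0.35 for Fgfr2, -0.18 to 0.13 for Spry1, -0.26 to 0.20 for Spry2 and -0.19 to 0.30 for Etv4. Elsewhere Fgfr3 in the endothelial gate was 0.32 with gates on all UMIs, Fgf15 in Fgf8 cells was 0.81 by DESeq2, 0.42 without the block and 0.15 without doublet removal, and Fgfr1 in Fgf10 cells of the aSHF gate was 0.26. Leave-one-out ranges crossing 0 were -0.000166 to 0.77 for Spry1 in Fgf8 cells, and in Fgf10 cells -0.16 to 0.013 for Fgfr1, -0.15 to 0.48 for Spry1 and -0.21 to 0.67 for Fgf15. The causes of these changes were not tested. Fgf3, Fgf9, Fgf15, Fgfr2, Fgfr3, Spry1 and Spred3 could not be fitted under some alternatives.

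The main limits are 1 library per stage, a change of dissected region with stage, and the few UMIs of Fgf3 and Fgf15 in the SHF gates, where single cells set the level.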
